A study of Ciona savignyi with 56 samples.

Results

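The animal cells described here are the blastomeres of the animal hemisphere of 64-cell embryos of the ascidian Ciona savignyi that were raised with U0126, an inhibitor of the kinase MEK. They are the 63 cells of 773 in the series that the authors' cell table places in the animal class of the treated embryos, 33 from U0126 embryo 1 and 30 from U0126 embryo 2. Embryos of the U0126 group grew in sea water with 2 µg/ml of the compound, and all other embryos grew without it. The comparisons use the 59 vegetal cells of the same pair of embryos, which fall into 7 classes (3 further cells are labelled low quality), 90 animal and 82 vegetal cells of 3 untreated 64-cell embryos, and the anterior and posterior epidermis of 3 untreated 110-cell embryos. The untreated animal cells carry 3 labels, epidermis (66 cells), a7.9/10/13 (15 cells) and b7.9/10 (9 cells), of which the last 2 are treated here as the neural classes. Untreated embryo 1 had 1 cell of b7.9/10, so its values for that class are those of a single cell. Every cell was moved singly from a dissociated embryo into lysis buffer, and its polyadenylated RNA was amplified as in Smart-seq2, a full-length cDNA method, but with primers that carry a cell barcode. The embryo is the replicate throughout, so the U0126 group has n = 2.

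In ascidians, animal blastomeres that touch vegetal cells are induced to a neural fate by fibroblast growth factor, whose receptor signals through MEK and ERK. The remaining animal blastomeres become epidermis. Work in Ciona and Halocynthia has shown that animal cells deprived of this signal take the epidermal path, and the question addressed by treating embryos with U0126 is what the transcriptome of each blastomere looks like without it. Genes appear here under their Ensembl identifiers, because names were not part of the deposited tables, and no role is assigned to any of them. For the same reason the animal label could not be checked against named marker genes, and it was read against genes measured in the untreated animal classes.

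The 6 U0126 libraries held 6 to 13 animal cells each, and every one also held vegetal cells of the same embryo. Their 48 cell barcodes were each used in more than 1 library, and no pair of cell columns was identical. The median animal cell held 25171 UMIs in U0126 embryo 1 and 38195 in embryo 2, beside 49503.5 and 38490 in the vegetal cells, so that the animal cells of embryo 1 were the shallower ones. In untreated animal cells the median ran from 32460 to 34013 UMIs. The matrix columns of U0126 cells hold read counts and those of untreated 64-cell and 110-cell embryos hold UMI counts. Treatment and kind of count therefore cannot be told apart in a direct comparison of levels, and contrasts were taken within embryos. The number of genes with a count in the matrix was 1.10 and 1.09 times that of the cell table in the median animal cell of U0126 embryos 1 and 2, and 1.00 times in untreated animal cells. How the authors assigned classes is not stated in the labels or files. If expression was used, the p-values of class contrasts are not independent of the labels.

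Against the vegetal classes of their own embryos, the animal cells of U0126 embryos held a set of strongly enriched transcripts. In the test of the animal class against the equal-weight mean of the 7 vegetal classes (edgeR quasi-likelihood test, embryo as a block, Benjamini-Hochberg adjusted p under 0.05), 70 of 7458 genes were called (0.939%). Of these, 67 were higher in animal cells (0.898%) and 3 were lower (0.0402%). Of the 67, 47 had no read in some vegetal class of an embryo. The fitted size depends there on the prior count, so sizes are given as measured ratios to the summed vegetal cells. The median log2 ratio of the called higher genes, averaged over the embryos with a floor of 3 reads, was 2.10, beside 0.14 over all tested genes, and 61 of the 67 were above the summed vegetal level in both embryos. The median called higher gene had a count in 93.7% of the animal cells and in 57.6% of the vegetal cells. The animal level of 47 of the 67 was above that of every vegetal class in both embryos, and that of 53 was above the vegetal level in 6 of 6 libraries.

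ENSCSAVG00000000279 led the list with 282 CPM (read counts scaled to a common library total) in the animal cells of U0126 embryo 1 and 124 in embryo 2. Its level in the summed vegetal cells was 0.679 and 0.651 CPM, a ratio of 414 and 190 that rests on 5 and 4 vegetal reads (adjusted p 4.53e-08, edgeR). A count was seen in 57 of 63 animal cells and in 2 of 59 vegetal cells. ENSCSAVG00000001127 had 110 and 167 CPM in animal cells and 1.90 and 1.95 CPM in vegetal cells, which is 57.6 and 85.5 times as much. It was counted in 59 animal cells and in 8 vegetal cells. ENSCSAVG00000007297 had 367 and 93.9 CPM in animal cells beside 1.63 and 1.46 CPM in vegetal cells, and ENSCSAVG00000000901 had 192 and 203 CPM beside 3.94 and 6.18 CPM. ENSCSAVG00000000901 had a read in every animal cell (63 of 63) and in 12 vegetal cells. In all 4 genes the animal sums of both embryos lay above every vegetal class, which the rule for naming genes required.

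The other 6 of the 10 named higher genes were found in fewer animal cells. ENSCSAVG00000007057 and ENSCSAVG00000008064 each had a count in 42 of the 63 animal cells, at 32.6 and 50.6 CPM and at 25.2 and 27.9 CPM. In embryo 2 neither had a read in a vegetal cell, so that they were at least 104-fold and 57.2-fold higher there, with 3 reads as the floor for the vegetal sum of an embryo. ENSCSAVG00000000610 had no read in any vegetal cell and reached 17.0 and 10.8 CPM in animal cells, at least 41.7-fold and 22.2-fold higher. ENSCSAVG00000011496 had reads in 30 animal cells, ENSCSAVG00000002048 in 45 and ENSCSAVG00000002911 in 25. Each of the 10 genes named so far was higher in animal cells in 6 of 6 libraries. Of the 10, ENSCSAVG00000002048 differed most between the embryos, with 113 CPM in animal cells of embryo 1 and 15.4 CPM in embryo 2.

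**Figure D1:**
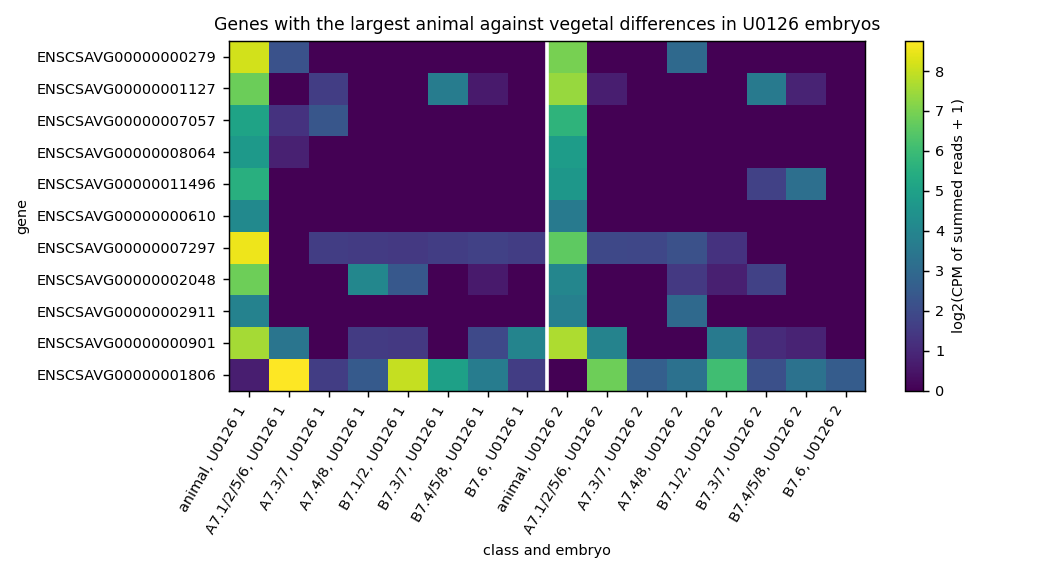
Levels of the 10 genes most enriched in animal cells and of the 1 gene named as lower, as log2(CPM + 1) of the summed reads, in the animal class and the 7 vegetal classes of U0126 embryos 1 and 2. Within each embryo the animal column is the highest of the 8 in the first 10 rows and the lowest in the last row. The rule that chose the genes required this order.

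Only 3 genes were called lower in animal cells by this test. ENSCSAVG00000001806 had 0.680 and 0 CPM in the animal cells of embryos 1 and 2, and 127 and 45.2 CPM in the summed vegetal cells (adjusted p 0.000205, edgeR). It had a count in 3 animal cells and in 42 vegetal cells. The other two, ENSCSAVG00000005620 and ENSCSAVG00000012509, fall outside the naming rule and are given because the count is small. The equal-weight mean treats each vegetal class alike on the log scale. It is not finite where a class has no read in either embryo, as was so for some class in 11.8% of the tested genes. That count is stricter than the one for the called higher genes above, where a class without reads in a single embryo was enough. With all vegetal cells of an embryo summed to 1 class, 181 of 8098 genes were called (2.24%), 93 higher and 88 lower. The low number of lower genes therefore depends on how the vegetal classes are combined.

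Taken class by class, fewer genes were called against the 3 anterior vegetal classes, whose names begin with A, than against the 4 posterior ones. The test called 23 genes against A7.1/2/5/6 (0.308%), 25 against A7.3/7 (0.335%) and 41 against A7.4/8 (0.550%). It called 54 genes against B7.1/2 (0.724%), 48 against B7.3/7 (0.644%), 87 against B7.4/5/8 (1.17%) and 99 against B7.6 (1.33%). The classes differ in cells and depth, with 2 cells of B7.6 in each embryo, and the order of the counts was not itself tested. Against B7.6, 63 genes were higher in animal cells and 36 lower. ENSCSAVG00000000279, ENSCSAVG00000000901 and ENSCSAVG00000007297 were higher against each of the 7 classes, and 82 genes were higher against at least 1.

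Part of the lower calls came from 1 run of neighbouring identifiers around ENSCSAVG00000012509, whose unequal share of the counts was known from earlier results of these data. Its 42 genes took 10.0% and 12.5% of the reads of animal cells in embryos 1 and 2, and 20.1% and 20.8% of those of the summed vegetal cells. The vegetal classes ranged widely, from 5.33% in B7.1/2 of embryo 1 to 44.9% in B7.4/5/8 of embryo 2, and in each embryo the animal cells lay above 3 and below 4 of them. As a mean over cells the shares were 10.8% against 15.4% in embryo 1 and 12.8% against 20.3% in embryo 2, so that the difference in embryo 1 was -4.67 points in place of -10.1. All 22 run genes called against B7.4/5/8 were lower in animal cells, as were the 17 called against A7.4/8 and the 13 called against B7.6.

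Most of these genes were also enriched in animal cells without U0126. In the untreated embryos, 70 of 5612 genes were called in the same contrast (1.25%), 56 higher and 14 lower in animal cells. Of the 67 genes higher in U0126 animal cells, 45 were also called higher in untreated ones, which is 67.2% of the U0126 list and 80.4% of the untreated list. The 51 genes of the U0126 list that were tested in untreated embryos all had a positive contrast there, as did 66.6% of the 5535 genes tested in both. The sets of embryos share no sample.

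The animal classes of untreated embryos gave the genes by which a neural and an epidermal state can be told apart. Of 5162 genes, 10 differed between a7.9/10/13 and epidermis (0.194%) and 15 between b7.9/10 and epidermis (0.291%). From these, 13 genes formed a neural list and 4 an epidermis list, each with a log2 difference of at least 1 in either neural class and the same order in every untreated embryo that had both classes. Since the lists were chosen on the untreated cells, the values of those cells describe the choice and test nothing. The treated cells took no part in it.

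A neural-list gene that was abundant in both untreated neural classes was nearly absent from the treated animal cells. ENSCSAVG00000004666 had 316, 372 and 621 CPM in a7.9/10/13 and 513, 443 and 333 CPM in b7.9/10 of untreated embryos 1, 2 and 3, and 77.2, 53.9 and 62.5 CPM in their epidermis. In U0126 animal cells it had no read in embryo 1 and 0.216 CPM in embryo 2. A single treated animal cell of 63 held any read of it (1.59%, exact 95% interval 0.0402% to 8.53%, counting error only), beside 24 of 24 untreated neural cells and 41 of 66 untreated epidermis cells. The treated animal cells had 4.03 and 4.02 reads per UMI, so an equal number of counts is fewer molecules in them. With treated cells thinned to 20000 reads and untreated ones to 5000 UMIs, an alternative chosen after the data were seen, the gene was found in 1 of 63 treated animal cells, 17 of 66 epidermis, 13 of 15 a7.9/10/13 and 8 of 9 b7.9/10 cells.

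Its levels in vegetal cells are given side by side, since reads are set against UMIs. In vegetal cells of the treated embryos ENSCSAVG00000004666 stood at 28.5 and 35.2 CPM, and in those of the untreated embryos at 344, 272 and 160.5 CPM. With vegetal cells summed, it was called lower in animal cells within U0126 embryos (adjusted p 2.50e-06, edgeR) and in untreated ones (log2 difference -0.84, SE 0.16, adjusted p 0.000286). In that fit 6 of the 13 neural-list genes were tested in U0126 embryos, 2 were called lower in animal cells, where 1.09% of all genes were, and none higher. With vegetal classes weighted equally 5 were tested and none was called.

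Most of the other neural-list genes were likewise at or near 0. ENSCSAVG00000003151 and ENSCSAVG00000005386 had no read in the 63 treated animal cells, which with a floor of 3 allows up to 4.76% of such cells to hold a read and sets no limit on the share that express the gene. In untreated embryos ENSCSAVG00000003151 was found at 137, 334 and 228 CPM in b7.9/10, and ENSCSAVG00000005386 at 41.8, 86.5 and 63.1 CPM in a7.9/10/13. ENSCSAVG00000010848, at 185, 225 and 163 CPM in untreated a7.9/10/13, was counted in 3 treated animal cells and reached 0.227 and 0.433 CPM. ENSCSAVG00000006812, ENSCSAVG00000003892, ENSCSAVG00000007331, ENSCSAVG00000003097, ENSCSAVG00000000423 and ENSCSAVG00000009682 had between 0 and 1.73 CPM in the animal sums of both treated embryos. In all, 8 of the 13 neural-list genes had a read in at most 3 of the 63 treated animal cells.

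A few neural-list genes remained measurable. ENSCSAVG00000005021 was found in 16 of 33 animal cells of embryo 1 and in 9 of 30 of embryo 2, at 40.1 and 5.84 CPM, beside 0 to 11.9 CPM in untreated a7.9/10/13 and 125 to 179 CPM in b7.9/10. It also belongs to the anterior list described further on. ENSCSAVG00000002295 had 9.52 and 9.95 CPM and ENSCSAVG00000005655 had 14.3 and 7.14 CPM in treated animal cells. These last, with ENSCSAVG00000005386, rank below the first 10 of the list and were named after their values were seen. In untreated epidermis ENSCSAVG00000002295 had 30.6 to 71.6 CPM and ENSCSAVG00000005655 had 12.8 to 20.4 CPM.

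The neural-list genes were also low beside untreated epidermis. Of the 9 with a mean of at least 5 CPM in untreated epidermis, 7 had a lower level in both treated animal sums than in each of the 3 untreated epidermis sums. Over all 7192 genes at that level the share was 32.6%, and reads are set against UMIs here, so these values are given side by side without a test. A lower level was seen in vegetal cells too, where 10 of the 13 genes had less in both treated sums than in any untreated sum. Reads are again set against UMIs, and the share over all genes was not counted for vegetal cells. Whether the neural-list genes differ from other genes in this respect was therefore not tested.

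Of the 4 epidermis-list genes, 2 were called higher in treated animal cells, where 0.898% of all tested genes were, and none lower. ENSCSAVG00000001127 and ENSCSAVG00000005894 were called higher in animal than in vegetal cells of the treated embryos, and both were also called in untreated embryos. ENSCSAVG00000005894 had 170.5 and 237 CPM in treated animal cells and 30.7 and 44.3 CPM in the vegetal cells of the same embryos (log2 difference 2.30 with vegetal cells summed, SE 0.15, adjusted p 1.18e-07, edgeR). It was found in 27 of 33 and in 30 of 30 treated animal cells. ENSCSAVG00000006844 and ENSCSAVG00000009089 were not called, at 95.5 and 48.0 CPM and at 48.3 and 138 CPM in treated animal cells. ENSCSAVG00000006844 is on the epidermis list for b7.9/10 only, and its level in untreated a7.9/10/13, 119 to 199 CPM, was above that in epidermis.

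**Figure D2:**
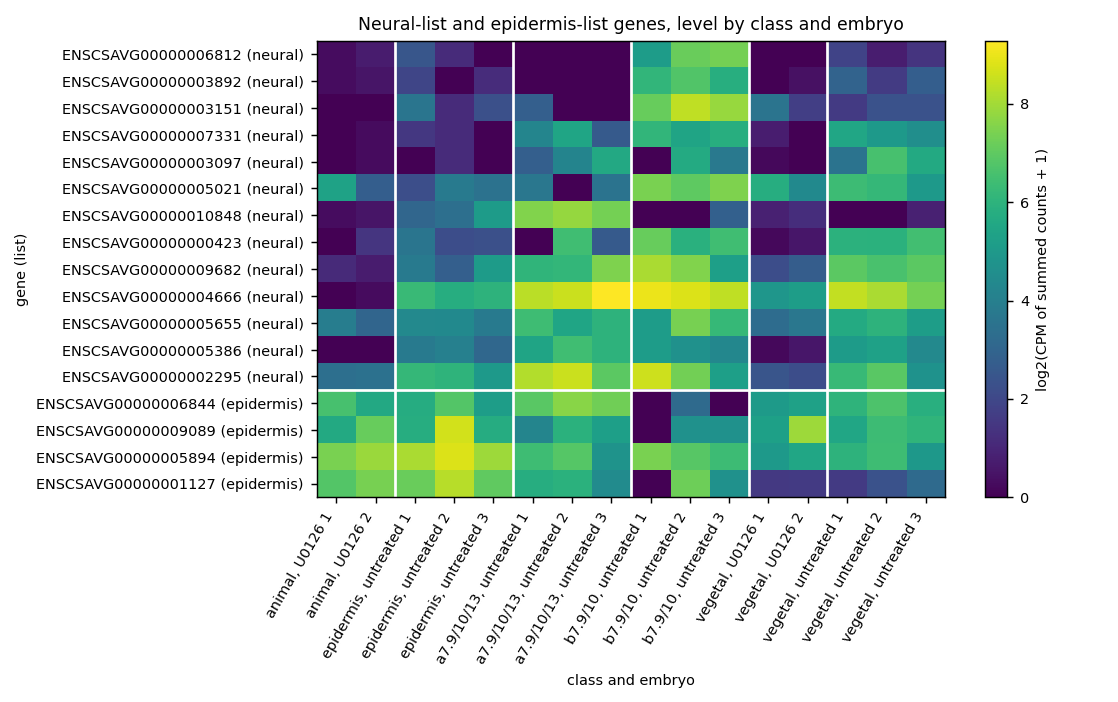
Levels of the 13 neural-list genes and the 4 epidermis-list genes as log2(CPM + 1) of summed counts, by class and embryo. Columns of U0126 embryos hold reads and untreated columns UMIs. Most neural-list rows are dark in the treated animal columns, and the epidermis-list rows are not.

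Counted per cell, no treated animal cell held more than 3 of the 13 neural-list genes. They held a median of 1 and a range of 0 to 3 of the 13 genes, and 15 of the 63 held none. Untreated a7.9/10/13 cells held 5 to 8, b7.9/10 cells 8 to 11, and epidermis cells 0 to 8 with a median of 3. In counts as deposited, reads against UMIs, the highest treated cell stood below the lowest untreated neural cell. With treated cells thinned to 20000 reads and untreated ones to 5000 UMIs, the median was 1 in treated animal cells and 1 in epidermis, 4 in a7.9/10/13 and 5 in b7.9/10. The ranges were then 0 to 3, 0 to 4, 1 to 7 and 3 to 9, so that single treated cells overlapped both neural classes and were not set apart from epidermis by this count.

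**Figure D3:**
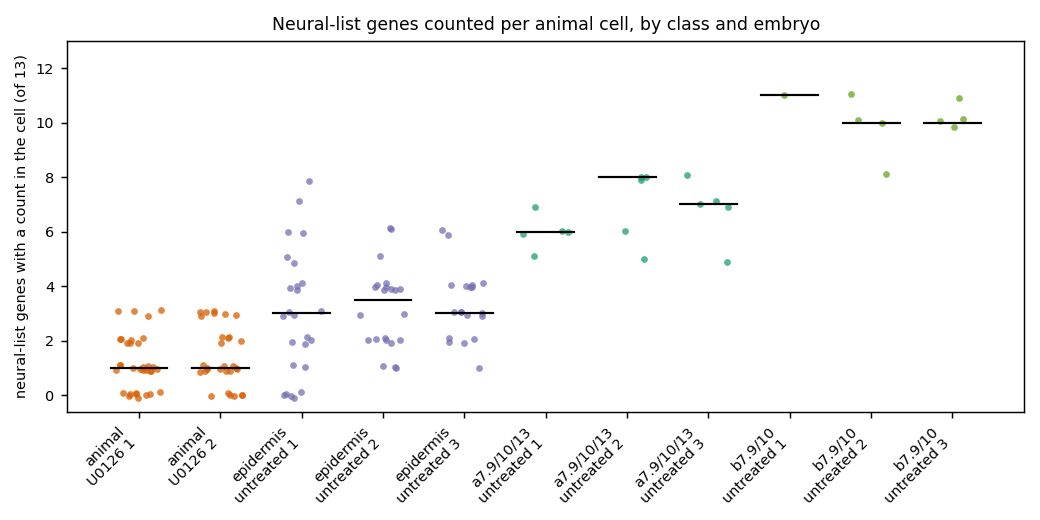
Number of the 13 neural-list genes with a count, as deposited, in each animal cell, by class and embryo; each point is a cell, shifted at random by less than 1 step for legibility, and each bar is the median. The 63 treated cells lie between 0 and 3 and the untreated a7.9/10/13 and b7.9/10 cells between 5 and 11.

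A score tested whether animal cells spread between a neural and an epidermal end, as the mean log2(CPM + 25) of the neural list minus that of the epidermis list. Lists were chosen without the untreated embryo being scored, and treated cells were scored with the same 3 pairs of lists. The SD of the score over animal cells was 1.13 and 0.875 in the U0126 embryos and 0.888, 1.76 and 1.45 in the untreated ones. The means differed by -0.36 (exact two-sided permutation test, p = 0.4). The smallest p for 2 against 3 embryos is 0.1, so this test cannot decide whether the spread differed. Of the treated cells, 11 of 33 and 2 of 30 lay above the midpoint between untreated neural and epidermis cells. So did 7 of 66 untreated epidermis cells and 21 of 24 neural cells. The neural part of all treated scores lay between 4.64 and 5.15, below the lowest untreated neural cell at 5.63. Treated cells above the midpoint thus passed it mainly through a low epidermis-list part and are not shown to be neural-like.

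With 1 untreated embryo held out, the neural list came to 13, 10 and 7 genes and the epidermis list to 8, 1 and 2. Both lists share genes with the anterior and posterior lists described further on. Without the shared genes, an alternative chosen after the data were seen, the SD was 0.539 and 0.650 in the U0126 embryos and 0.847, 0.798 and 1.19 in the untreated ones (exact two-sided permutation test, p = 0.2). With the neural list alone, also chosen after the data were seen, the SD was 0.156 and 0.0959 in the U0126 embryos and 0.516, 0.726 and 0.616 in the untreated ones, and the groups did not overlap. The exact two-sided permutation p was 0.1, the smallest that the design allows. The neural-list level of treated cells ended at 5.15, below the lowest untreated neural cell at 5.63. Untreated epidermis cells ran from 4.64 to 5.93, which covers the whole treated range. Reads are set against UMIs here. The scale is log2(CPM + 25) with held-out lists, on which a cell without any count of these genes has 4.64. All treated cells thus lay between 4.64 and 5.15, close to the lower limit of the scale, where the SD can only be small. The lists were also chosen for differences among untreated animal cells. The smaller SD with the neural list alone therefore restates the low level of these genes. It cannot decide whether treated cells split into a neural and an epidermal group.

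The test of the difference itself, animal against vegetal with U0126 minus the same without, used all 5 embryos. With vegetal classes weighted equally it called 1 of 6814 genes (0.0147%), with 115 at an unadjusted p under 0.05 and 3 called by DESeq2. ENSCSAVG00000001951 was that gene (fitted log2 difference 4.65, adjusted p 0.0266, edgeR), with vegetal classes at 0 in both treated embryos. It had a count in 7 of 63 treated animal cells and in 6 of 59 vegetal cells, and none in the animal cells of untreated embryo 1, beside 61.7 and 67.8 CPM in those of embryos 2 and 3. The call was lost when any of the untreated embryos was left out. In this fit 25.2% of the genes had no count in some vegetal class over all treated or over all untreated embryos. The 3 neural-list genes named in the next paragraph had p-values near 1 in it.

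With the vegetal cells of each embryo summed, an alternative chosen after the data were seen, 17 of 7589 genes were called (0.224%), 9 with a higher and 8 with a lower animal share under U0126 (0.105%). In each of the 17 the ratio of animal to vegetal level did not overlap between the 2 treated and the 3 untreated embryos. The genes were called on these same embryos, so this describes the choice, and its share over all tested genes was not counted. All 13 neural-list genes were tested and none was called higher, while within U0126 embryos alone 6 of them were tested. The list was chosen on the same untreated embryos that enter this test, so its overlap with the calls is not independent support. Of the 8 lower genes 3 were on the neural list. They were ENSCSAVG00000003151 (log2 difference -10.40, SE 1.16, adjusted p 0.00117, edgeR), ENSCSAVG00000010848 (-8.70, SE 1.30, adjusted p 0.00501) and ENSCSAVG00000004666 (-7.03, SE 0.85, adjusted p 0.00117). ENSCSAVG00000003151 and ENSCSAVG00000004666 were called in 5 of 5 fits that left out an embryo and ENSCSAVG00000010848 in 4. Fits that left out a U0126 embryo had 1 treated embryo, assumed to vary like the untreated ones, so they are weak checks. The treated animal cells of 1 or both embryos had no read of ENSCSAVG00000003151 or ENSCSAVG00000004666. Vegetal cells of 2 untreated embryos had none of ENSCSAVG00000010848. The fitted values of these 3 genes therefore depend on the prior count and are not measured folds.

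ENSCSAVG00000003151 was called higher in animal than in summed vegetal cells of untreated embryos (adjusted p 8.52e-07, edgeR) and lower in those of treated embryos (adjusted p 0.0197). Untreated animal cells had 13.4, 38.3 and 35.2 CPM and untreated vegetal cells 2.01, 4.11 and 4.11 CPM. Treated animal cells had none, and treated vegetal cells 10.7 and 2.28 CPM. ENSCSAVG00000010848 had 30.7, 31.8 and 51.1 CPM in untreated animal cells and at most 0.823 CPM in untreated vegetal cells, and at most 1.30 CPM in animal or vegetal cells of the treated embryos.

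The next 2 genes in order of size lie on none of the lists. ENSCSAVG00000002003 had 150 and 93.5 CPM in treated animal cells beside 22.6 and 19.2 CPM in vegetal cells, a smaller ratio than in untreated embryos (173, 178 and 203 CPM beside 4.69, 8.92 and 2.47 CPM). It was called in 5 of 5 fits that left out an embryo. ENSCSAVG00000009296 had 0.453 and 1.51 CPM in treated animal cells beside 14.5 and 6.84 CPM in vegetal cells, where untreated embryos had 36.9, 14.0 and 65.2 CPM beside 47.6, 12.3 and 44.4 CPM. Its call held in 1 of those 5 fits.

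Among the 9 genes with a higher animal share under U0126, 8 were also called higher in animal cells within the treated embryos. ENSCSAVG00000008064 and ENSCSAVG00000007699 had the largest fitted differences (6.51, adjusted p 0.00150, and 6.32, adjusted p 0.00170, edgeR). Treated vegetal cells of embryo 2 had no read of either and those of embryo 1 had 0.136 CPM of each, so these sizes and their rank depend on the prior count. For ENSCSAVG00000008064 the animal levels were 25.2 and 27.9 CPM with U0126 and 21.1 to 43.0 CPM without, while the vegetal level was 0.136 and 0 CPM with U0126 and 11.4 to 15.6 CPM without. ENSCSAVG00000007297 had 1.63 and 1.46 CPM in treated vegetal cells and 8.23 to 39.6 CPM in untreated ones. ENSCSAVG00000000266 had 18.4 and 31.2 CPM in treated animal cells beside 0.544 and 1.14 CPM in vegetal cells, and 30.7, 27.1 and 5.28 CPM beside 13.4, 9.60 and 11.5 CPM in untreated embryos. ENSCSAVG00000001951, described above, was called here as well, at 4.21 (SE 0.62, adjusted p 0.00426). Outside the 5 largest, ENSCSAVG00000000279 differed by 3.76 (SE 0.63, adjusted p 0.0153) and is named because it led the animal genes. Treated animal cells held 282 and 124 CPM of it and untreated ones 22.01, 76.6 and 48.4 CPM, with 0.651 to 3.29 CPM in vegetal cells of all 5 embryos. These side-by-side levels set reads against UMIs, but the ratio of animal to vegetal level does not.

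**Figure D4:**
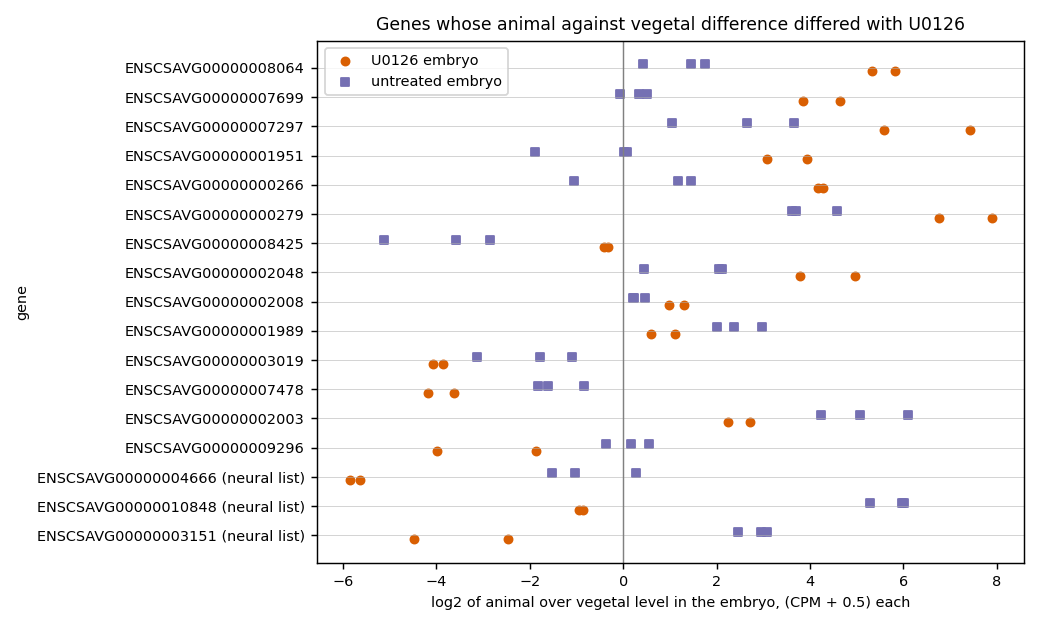
Log2 ratio of animal to vegetal level in each embryo for the 17 genes called with summed vegetal cells, with 0.5 CPM added to both levels; circles are the 2 U0126 embryos and squares the 3 untreated embryos. The groups of points do not overlap in any of the 17 rows, which were chosen by a test on these same embryos. The 3 neural-list genes are the lowest rows.

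Treated animal cells were not alike in every respect. At the 110-cell stage, 15 of 5159 genes differed between anterior and posterior epidermis of untreated embryos (0.291%), and those with a log2 difference of at least 1 gave an anterior list of 8 genes and a posterior list of 6. Of these lists, 2 anterior genes are also on the neural list and 1 posterior gene on the epidermis list. The SD of the anterior minus posterior score over animal cells was 1.05 and 0.835 in the U0126 embryos and 0.574, 0.988 and 1.13 in the untreated ones. The means differed by 0.05, and the exact two-sided permutation p was 0.9. Without the 3 shared genes, an alternative chosen after the data were seen, the difference was 0.12 and the exact permutation p again 0.9. The sign of the difference of 0.05 changed when U0126 embryo 1 or untreated embryo 1 was left out, to -0.06 and -0.11. Within the treated embryos the anterior and posterior list levels ran against each other over cells, with r = -0.74 in the 33 cells of embryo 1 and -0.55 in the 30 of embryo 2. In untreated epidermis r was -0.21, -0.71 and -0.80. The anterior minus posterior score also ran with the neural minus epidermis score, with r = 0.82 and 0.79 in the treated embryos. Over untreated epidermis cells that r was 0.32, 0.79 and 0.77. Whether the scores describe separate variation was not tested. Cells of 1 embryo share libraries, and the anterior minus posterior score had an r of -0.09 with log2 UMIs in both treated embryos.

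A pair of single genes, chosen after their values were seen, ran against each other too. ENSCSAVG00000000644, on the anterior list, was found in 23 of 33 and 20 of 30 treated animal cells. Its level was higher in vegetal cells of the same embryos, at 264 and 260 CPM beside 101 and 90.7 CPM in animal cells. Over animal cells it ran against ENSCSAVG00000005894, with r = -0.81 and -0.74. That gene is on both the posterior and the epidermis list, so the pair does not set an anterior-posterior difference apart from a neural-epidermal one. In U0126 embryo 1, 16 cells had more ENSCSAVG00000000644 and 17 more ENSCSAVG00000005894. The first group had medians of 195 CPM and 6.25 CPM of these genes, and the second 0 and 288 CPM. In embryo 2, 13 cells had more ENSCSAVG00000000644 and 16 more ENSCSAVG00000005894, and all 30 had a read of the latter. Each of the 6 libraries held cells of both kinds. In untreated epidermis of embryos 1, 2 and 3, 2 of 25, 0 of 22 and 4 of 19 cells had more ENSCSAVG00000000644. The r of the pair there was -0.21, -0.43 and 0.03.

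Members of the lists did not all follow that pair. ENSCSAVG00000005319, a posterior-list gene called higher in treated animal than vegetal cells (adjusted p 0.0106, edgeR), ran against ENSCSAVG00000000644 with r = -0.63 and -0.45. It was called with vegetal classes weighted equally, some of them at 0, although its summed animal level of 108 and 87.2 CPM was not above the 115 and 102 CPM of the summed vegetal cells. ENSCSAVG00000005769 had r = -0.37 and -0.57. ENSCSAVG00000002946, also posterior, had r = 0.32 and 0.25, and had a read in every treated animal cell at 732 and 986.5 CPM. ENSCSAVG00000011646 had a read in 1 cell of each embryo. Of the anterior list, ENSCSAVG00000005021 ran with ENSCSAVG00000000644 (r = 0.65 and 0.41). ENSCSAVG00000002442 and ENSCSAVG00000002459 had reads in 2 and 0 of the 63 treated animal cells, and stood at 103 and 6.35 CPM and at 31.9 and 7.32 CPM in the vegetal cells. No anterior gene and 3 posterior genes were called between animal and vegetal cells, all 3 higher in animal cells, where 0.939% of all tested genes were called and 0.898% were higher.

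**Figure D5:**
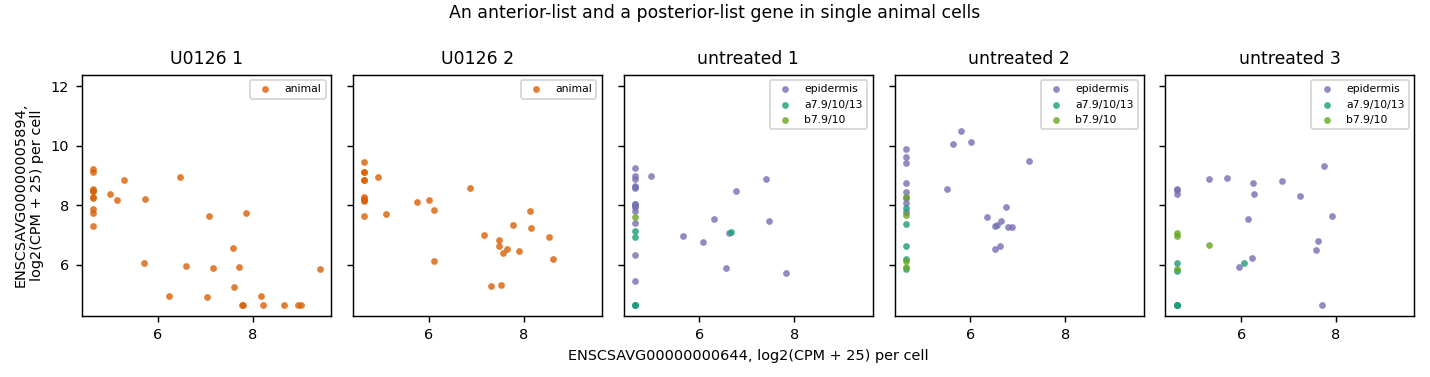
Levels of an anterior-list gene, ENSCSAVG00000000644, and a gene of the posterior and epidermis lists, ENSCSAVG00000005894, in single animal cells as log2(CPM + 25), by embryo. Each point is a cell, coloured by class, and cells without a count lie at the lower limit of the axis. In both U0126 embryos the points run from upper left to lower right.

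Variation among treated animal cells was also described over all genes with enough reads. Ranked by the variance of log2(CPM + 25) among genes with a mean of at least 20 CPM, 25 genes were within the first 100 in both U0126 embryos. Of these, 2 were on the epidermis list, 1 on the anterior and 3 on the posterior list. Of the 13 neural-list genes 1 reached that mean in a U0126 embryo, so the others could not be ranked, and 1 was within the first 100 of at least 1 U0126 embryo. None was within the first 100 of both. In untreated animal cells 6 of the 13 were within the first 100 of at least 1 embryo and 3 in all 3. The list was chosen for differences between classes of those same cells, so their variance there describes the choice. The treated and untreated numbers are therefore no test of a difference.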

How the data were processed

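Per the labels' protocols, single blastomeres were moved by capillary to tubes and their RNA amplified with barcoded primers. The authors' deposited matrix holds counts per gene and cell, which are UMI counts for untreated 64-cell and 110-cell embryos and read counts for U0126 embryos, and 86 of its columns were not used here. The authors' deposited cell table gives the other fields used, namely class, embryo, library and UMI totals. CASAVA 1.8, DESeq2 and Seurat are named per the submitters' processing notes, while the sources used here do not give the aligner, the genome build or the method of class assignment. Low quality cells were left out, and no doublet caller was run.

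Counts were summed per embryo and class and tested with edgeR 4.0.16 (TMM, filterByExpr, quasi-likelihood test, embryo as a block, Benjamini-Hochberg adjusted p under 0.05). The block pairs classes of the same embryo. DESeq2 1.42.0 was an alternative. CPM were taken from the summed counts. Scores used a pseudocount of 25 CPM, and SDs of scores were compared with exact two-sided permutation tests over embryos. Ratios against a vegetal sum of 0 used a floor of 3 reads per embryo, and intervals are exact binomial ones at 95%.

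Genes named were the 10 of largest fold change in each direction among called genes beyond every vegetal class in both embryos, the first 10 of the neural and epidermis lists, the first 5 of the anterior and posterior lists, and the 5 of largest difference in each direction between treated and untreated embryos. Other names are marked as such. The cells and lists were chosen with earlier results of these data known. The pipeline was tested on simulated counts with known changes. Alternatives covered scaling, filters, the test, the block, the run of neighbouring identifiers, the weighting of vegetal classes, the pseudocount, thinning and each embryo left out, and measured ratios and the thinning matched on molecules were added after the data were seen.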

Additional observations from a re-analysis of the deposited data

Results flagged for a closer look

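Genes listed here had an animal against vegetal difference that itself differed between U0126 and untreated embryos, by the test of that difference. With vegetal classes weighted equally the gene was ENSCSAVG00000001951, at a log2 difference of 4.65. The other values come from fits with the vegetal cells of an embryo summed, an alternative chosen after the data were seen, and genes outside the naming rule are given to complete the 17. These are fitted values, which depend on the prior count where a group had few or no reads.

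A lower animal share under U0126 was called for ENSCSAVG00000003151 at -10.40, ENSCSAVG00000010848 at -8.70 and ENSCSAVG00000004666 at -7.03, which are on the neural list. It was also called for ENSCSAVG00000009296 at -3.52, ENSCSAVG00000002003 at -2.65, ENSCSAVG00000007478 at -2.64, ENSCSAVG00000003019 at -2.05 and ENSCSAVG00000001989 at -1.74.

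A higher animal share was called for ENSCSAVG00000008064 at 6.51, ENSCSAVG00000007699 at 6.32, ENSCSAVG00000007297 at 4.76, ENSCSAVG00000001951 at 4.21, ENSCSAVG00000000266 at 3.99, ENSCSAVG00000000279 at 3.76, ENSCSAVG00000008425 at 3.62, ENSCSAVG00000002048 at 3.49 and ENSCSAVG00000002008 at 0.73. In ENSCSAVG00000008425 the animal level was below the vegetal one in all 5 embryos, by less in the treated ones. Samples far from the others of their group were not sought, since no group has over 3 embryos.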

How the results depend on the processing

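The number of genes called between animal and vegetal cells of U0126 embryos, 70, was 129 with any gene counted in at least 2 sums, 38 against a log2 fold change of 1, 181 with vegetal cells summed, 60 without the embryo block and 169 to 201 with 1 U0126 embryo left out, where the remaining embryo is assumed to vary like the untreated ones. In untreated embryos the 70 calls became 127 with the loose filter, 35 against a log2 fold change of 1 and 46 with no replicate block. For the difference between treated and untreated embryos, 1 call became 3 with the loose filter, 3 with DESeq2, 0 against a log2 fold change of 1, 0 with no replicate block, 17 with vegetal cells summed and 0 to 8 with an embryo left out. With vegetal cells summed the 17 became 102 and 95 without U0126 embryo 1 or 2, and the range over all 5 embryos left out was 12 to 102. Anterior neural against epidermis gave 10 calls, and 18 with the loose filter, 5 against a log2 fold change of 1, 1 with no replicate block and 4 to 12 with an embryo left out. Posterior neural against epidermis gave 15 calls, and 4 with at least 50 counts, 9 with DESeq2, 8 against a log2 fold change of 1, 7 with no replicate block and 6 to 15 with an embryo left out. The difference in spread of the anterior minus posterior score, 0.05, was -0.06 without U0126 embryo 1 and -0.11 without untreated embryo 1, in a range of -0.11 to 0.16. The difference in the share of the run, -9.20 points, was -7.64 with a window of 15 identifiers, -6.07 as a mean over cells and -10.1 to -8.28 with an embryo left out. The causes were not tested. Single named genes kept their direction in every alternative run. Of the animal against vegetal values 110 kept the call and 8 lost it, and of those for the summed difference 100 kept it and 19 lost it. Among neural-list genes against epidermis, 48 values kept the call and 13 lost it for the anterior neural class. For the posterior neural class 85 kept it and 15 lost it. With 2 treated embryos no permutation test over embryos against the 3 untreated ones can pass 0.05.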

Other observations

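A set of genes outside every list also varied together among treated animal cells. ENSCSAVG00000000882, ENSCSAVG00000000859, ENSCSAVG00000006137, ENSCSAVG00000008095 and ENSCSAVG00000011106 were among the 25 genes within the 100 most variable of both U0126 embryos, and they were picked after their values were seen, so that no test is given. Over single cells, the r of the other 4 genes with ENSCSAVG00000000882 lay between 0.62 and 0.74 in the 33 cells of embryo 1 and between 0.86 and 0.93 in the 30 cells of embryo 2. ENSCSAVG00000006137 was the most abundant of them, at 295 and 1133 CPM, and had a read in all 63 cells. None of the 5 was called between animal and vegetal cells of the treated embryos (adjusted p 1 for each, edgeR), and ENSCSAVG00000000882 had an r of 0.27 and 0.11 with the anterior minus posterior score. Cells of an embryo share libraries, and the r of ENSCSAVG00000000882 with log2 UMIs was -0.24 and 0.11.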
